A study of Mus musculus with 3 samples.

Results

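MiR-22 was described here through its arms, miR-22-3p and miR-22-5p, which are the 2 of the 1915 mature mouse miRNAs in the deposited tables that carry its name. They were picked by name (mmu-miR-22-3p and mmu-miR-22-5p) and not by their values. The libraries held small RNA from exosomes, the vesicles released into culture by macrophages that had been raised from the bone marrow of adult wild-type C57BL/6 mice. Marrow cells spent 24 h with M-CSF, a cytokine that makes them into macrophages. They were then kept in medium whose serum was free of exosomes, and vesicles were pelleted from it after 72 h. There was 1 group with 3 libraries and no control or parent-cell library, so the levels below belong to the pellet and can be compared only between libraries and between miRNAs. Whether each library had its own culture or animal is not in the labels. SDs therefore cover only how far these libraries differ, and that spread could be technical. The p-values also hold for these libraries only. Tests between libraries are set against counting error alone, and the edgeR test between arms also against a spread shared over precursors.

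A miRNA is cut from a hairpin precursor that can give a mature strand from each side, the 5p and the 3p arm. An Argonaute protein usually keeps one arm, and bases 2 to 8 of that arm, the seed, pair with target mRNAs. MiR-22 is conserved across vertebrates and found in most tissues, with high levels in striated muscle. In blood-forming cells it is known for repressing Tet2, an enzyme that oxidises 5-methylcytosine, and miR-22 takes part in the development of monocytes into macrophages.

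The sequences below are shown because the counts rest on telling these arms apart from each other and from look-alikes. They come from RefSeq, build GRCm38.p6, which shares coordinates with the mm10 build named in the submitters' processing notes. In the hairpin the capitals mark the 5p arm and then the 3p arm, and in the mature strands they mark the seed.
mir-22 hairpin: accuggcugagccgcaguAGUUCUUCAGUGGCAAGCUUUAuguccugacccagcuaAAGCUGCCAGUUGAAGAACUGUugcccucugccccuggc
miR-22-3p: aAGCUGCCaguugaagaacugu
miR-22-5p: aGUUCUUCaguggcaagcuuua
miR-3966: aGCUGCCAgcuguagaacugu
The hairpin of 95 bases lies on chromosome 11, from 75463716 to 75463810 on the plus strand, with miR-22-5p at 75463734 to 75463755 and miR-22-3p at 75463772 to 75463793. In the GENCODE M21 annotation it lies inside exon 2 of both annotated transcripts of the noncoding host gene Mir22hg, and inside exon 2 of a transcript of the protein-coding gene Tlcd2 on the same strand. Each arm has 22 bases and starts with A, and 16 bases of loop separate them. In the minimum free energy fold of the hairpin, 19 bases of each arm paired with the opposite arm.

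Each arm's sequence occurred in 1 of the 1005 hairpins in the RefSeq table, so no second annotated hairpin gives the same mature strand. Of 1679 mature names there, no other had the seed of miR-22-3p or of miR-22-5p at bases 2 to 8. At bases 2 to 7, miR-6935-3p and miR-7092-3p matched miR-22-5p, and they had 1 and 0 counts in all libraries together. The mature strand nearest to miR-22-3p was miR-3966, at 3 edits, and it had 7, 12 and 5 counts in libraries 1, 2 and 3, against 11558 or more for miR-22-3p. The nearest strands to miR-22-5p were 8 edits away. The letters GGAG and CCCU, reported in vesicle-sorted miRNAs, were searched on the mature strand itself and stood in neither arm. GGAG was found in 14.2% and CCCU in 11.4% of all mature strands in that table.

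The libraries held 2489984 to 3208617 counts assigned to mature miRNAs, and levels are given as counts per 1000000 of these (CPM). At these depths a miRNA with no count could still have up to 0.935 to 1.20 CPM (3 counts). Library 1 stood apart from libraries 2 and 3. Of the 6 miRNAs listed here as myeloid markers, miR-21a-5p was the most abundant. It took 3.73% of counts in library 1, against 30.5% and 26.1% in libraries 2 and 3. This moves the share left for every other miRNA. All 6 myeloid markers had counts in every library, and they summed to 71162, 344914 and 300101 CPM in libraries 1, 2 and 3. Most of each sum came from miR-21a-5p and miR-146a-5p. In library 1, miR-142a-3p, miR-142a-5p, miR-155-5p and miR-223-3p stood at 42.9, 292, 74.8 and 35.6 CPM. In library 2 they stood at 1364, 818, 2388 and 52.6 CPM, and in library 3 at 819, 390, 829 and 33.0 CPM. MiR-223-3p was thus low in every library and lowest in library 3. The 3 striated-muscle markers summed to 2.66, 0 and 2.18 CPM and the 2 erythroid markers to 35.6, 18.1 and 11.2 CPM. The hepatocyte miR-122-5p stood at 322, 548 and 1500 CPM. The lymphoid marker summed to at most 0.312 CPM in any library, the endothelial one to 21.6 to 43.8 CPM, the 4 stromal ones to 135 to 247 CPM, the 2 epithelial ones to 37.9 to 229 CPM and the 2 neuronal ones to 5.65 to 14.02 CPM, with miR-124-3p at 0 throughout. What part any of these cells had in the miR-22 level was not tested.

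MiR-22-3p, the arm known to act on Tet2, was among the more abundant miRNAs detected in these exosome pellets. In the tables mmu-miR-22-3p had 15182, 12669 and 11558 counts in libraries 1, 2 and 3, or 5046, 5088 and 3602 CPM. Libraries 1 and 2 thus stood together and library 3 below both. The mean was 4579 ± 846 CPM (SD, n = 3), or 0.458% ± 0.0846 of all miRNA counts, which placed it 32nd of 886 detected miRNAs. Its place within each library hardly moved, at ranks 31, 29 and 30, and a rank does not depend on how libraries are scaled. Fewer vesicles that carry miR-22 and fewer copies in each vesicle cannot be told apart in such pools.

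MiR-22-5p, the arm that is usually discarded, was present at a much lower level. In the tables mmu-miR-22-5p had 756, 500 and 572 counts, or 251, 201 and 178 CPM, in libraries 1, 2 and 3. Library 1 was highest, and libraries 2 and 3 were close to each other. The mean was 210 ± 37.4 CPM (SD, n = 3), rank 109 of 886 detected miRNAs. Its ranks within the libraries were 105, 102 and 101.

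**Figure D1:**
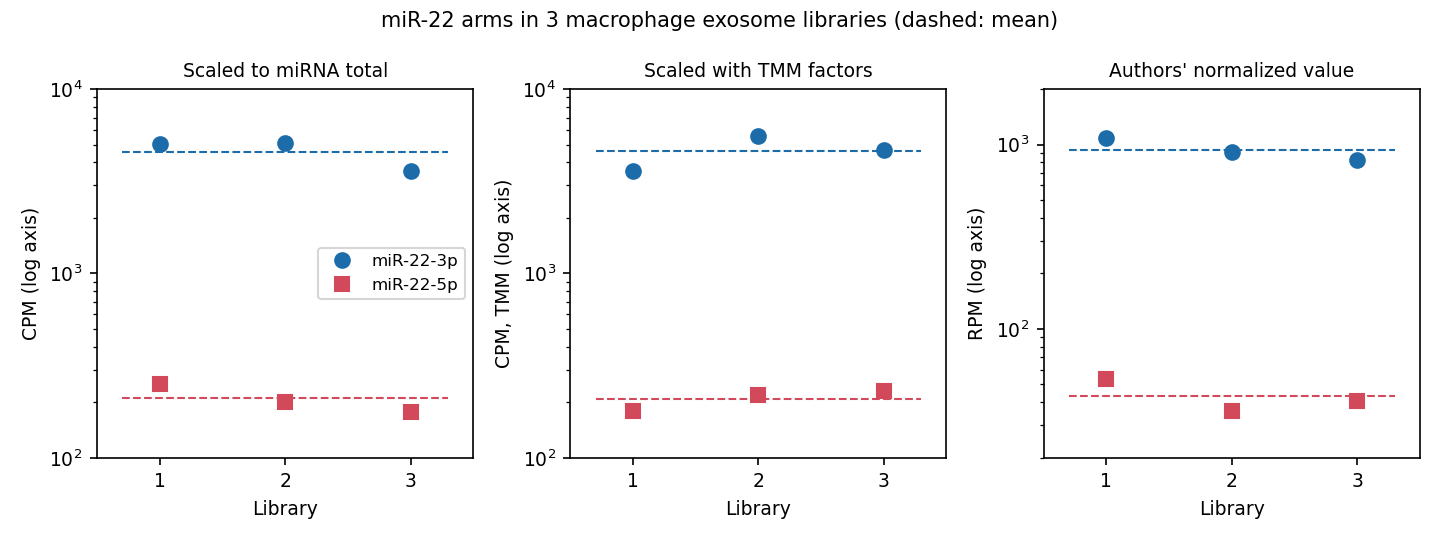
Level of miR-22-3p (circles) and miR-22-5p (squares) in each library on log axes, in counts per 1000000 miRNA counts (left), after TMM scaling (middle) and as the authors' RPM (right), with dashed lines at the means of the 3 libraries. Library 1 is the highest for miR-22-5p on the left at 251 CPM and the lowest in the middle, at 179 CPM.

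Whether the arms differed between libraries by more than counting error was asked with a chi-square test against the library totals, adjusted by Benjamini-Hochberg over 353 miRNAs. Of those, 318 (90.1%) passed at an adjusted p below 0.05, so a pass is what most miRNAs showed. MiR-22-3p passed (adjusted p = 3.40e-208), as did miR-22-5p (adjusted p = 2.22e-09). With counts scaled to miRNA totals, the difference in miR-22-3p came with library 3. The log2 ratio of library 1 to library 2 was -0.01 (95% counting interval -0.05 to 0.02), and without library 3 the adjusted p was 0.515. The log2 ratios were 0.49 (0.45 to 0.52) for library 1 over library 3 and 0.50 (0.46 to 0.53) for library 2 over library 3. For miR-22-5p they were 0.32 (0.16 to 0.49), 0.50 (0.34 to 0.65) and 0.17 (-0.0043 to 0.35) for libraries 1 over 2, 1 over 3 and 2 over 3, and without library 1 its adjusted p was 0.0784. These intervals cover counting error only.

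The place of library 1 depended on the scaling. TMM factors, which centre the bulk of miRNAs, moved all log2 ratios by -0.61 between libraries 1 and 2 (1 over 2) and by -0.86 between libraries 1 and 3 (1 over 3). MiR-22-3p then stood at 3587, 5537 and 4657 CPM and miR-22-5p at 179, 219 and 230 CPM in libraries 1, 2 and 3, so that library 1 was the lowest for both arms. The log2 ratio of library 1 to library 2 for miR-22-3p was then -0.63 (-0.66 to -0.59), and that of library 2 to library 3 was 0.25 (0.21 to 0.29). In the authors' RPM, miR-22-3p was at 1081, 905 and 825 and miR-22-5p at 53.8, 35.7 and 40.8, with library 1 the highest for both. Next to other abundant miRNAs, both arms of miR-22 were on the low side in library 1. Over the 134 miRNAs that averaged 100 CPM or more, the median log2 ratio was 0.62 for library 1 over library 2 and 0.96 for library 1 over library 3, each above the values of both arms.

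Both arms varied less between libraries than most abundant miRNAs. The coefficient of variation was 18.5% for miR-22-3p and 17.8% for miR-22-5p, against a median of 59.6% over the 134 miRNAs. Counted from the lowest, they were 9th and 8th. With TMM factors the coefficients were 21.3% and 13.0%, ranks 24 and 9, against a median of 50.9%. No test of this difference was made.

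The ratio of the arms is taken within a library, so library totals cancel from it. Ligation and PCR favour some sequences, and this does not cancel between the arms, so the ratio is one of read counts and not of molecules. MiR-22-3p had 20.1 counts for each count of miR-22-5p in library 1 (95% Wilson interval 18.7 to 21.6), 25.3 in library 2 (23.2 to 27.7) and 20.2 in library 3 (18.6 to 21.98). Libraries 1 and 3 were alike and library 2 leaned further to the 3p arm. The 3p arm made up 95.3%, 96.2% and 95.3% of miR-22 counts in libraries 1, 2 and 3, a mean of 95.6% ± 0.539 (SD, n = 3).

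**Figure D2:**
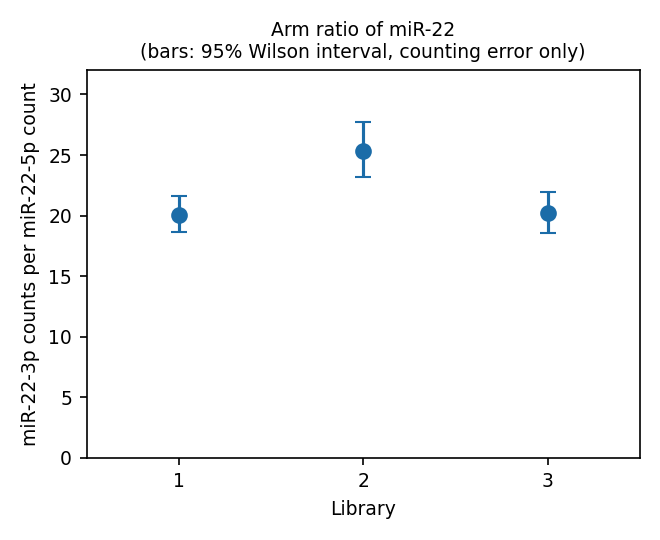
Counts of miR-22-3p per count of miR-22-5p in each library, with 95% Wilson intervals that cover counting error only. Library 2, at 25.3, lies above libraries 1 and 3, at 20.1 and 20.2.

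Across precursors, arm preference was tested in edgeR (quasi-likelihood test of 3p against 5p counts, terms for library and arm). Of 749 precursors with both arms in the tables, 157 reached a summed count of 60. The 3p arm was higher in 61 of them (38.9%) and the 5p arm in 65 (41.4%) at an adjusted p below 0.05. MiR-22 was among the 61, with a log2 ratio of 3p to 5p of 4.44 (SE 0.90, adjusted p = 2.58e-06 in edgeR), higher in 3 of 3 libraries, which is 21.7-fold. This preference was moderate among the precursors tested. Its size was below the median absolute log2 ratio of 6.24, and 56 precursors had a smaller one. The lesser arm of each precursor was taken as the one with the lower mean CPM. MiR-22-5p was the 10th most abundant lesser arm of the 157, at 210 CPM against a median of 3.68 CPM. Just above it were miR-361-5p at 250 CPM and miR-130b-5p at 294 CPM, and just below it miR-106b-5p at 188 CPM. For miR-130b the higher arm was not the same in all libraries.

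**Figure D3:**
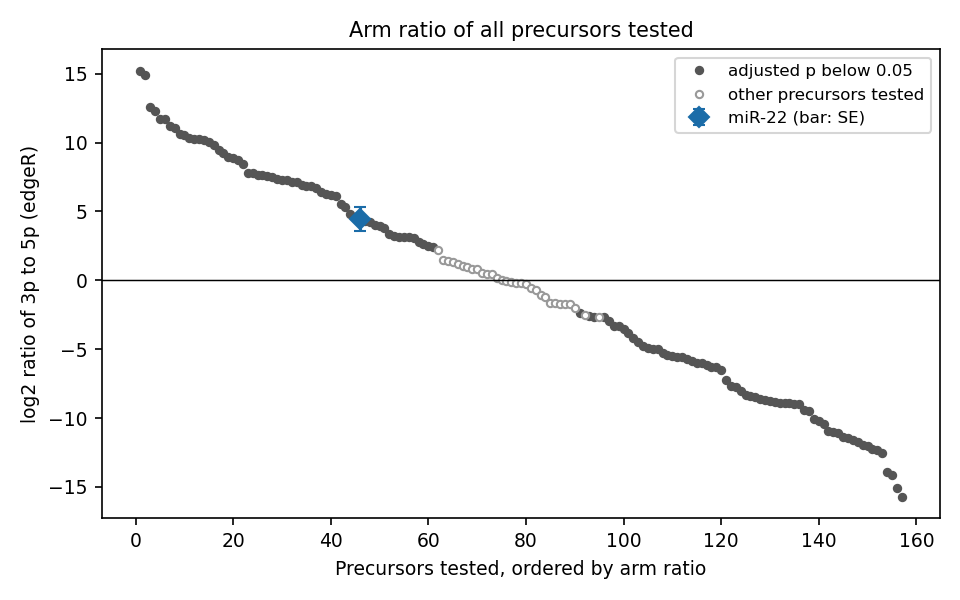
Fitted log2 ratio of 3p to 5p counts of the 157 precursors tested, ordered from the highest to the lowest, with filled points at an adjusted p below 0.05. MiR-22 (diamond, bar of 1 SE) is 46th at 4.44.

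The precursors next to miR-22 in this order were miR-222, miR-140 and miR-342 above it and miR-1933, miR-582 and miR-345 below it. Their fitted log2 ratios of 3p to 5p were 5.33 (SE 0.93), 4.78 (SE 0.84), 4.63 (SE 1.06), 4.29 (SE 1.35), 4.22 (SE 1.07) and 3.98 (SE 1.08). Each value lay within its own SE of that of miR-22, but no test between precursors was made. These SEs rest on a spread shared over all precursors tested. For miR-22 the SE was 0.90, while its log2 ratios in the 3 libraries had an SD of 0.19. Values within an SE are therefore not shown to be alike. Single libraries of these neighbours were less alike than those of miR-22. MiR-222 came nearest to it, with 31.5, 44.2 and 46.4 counts of 3p for each count of 5p in libraries 1, 2 and 3. These were above the ratios of miR-22 in every library. MiR-345 had 142, 6.02 and 7.74 counts of 3p for each count of 5p in libraries 1, 2 and 3, miR-582 had 133, 7.17 and 10.2, and miR-140 had 44.4, 20.5 and 22.9. The 5p arms of miR-345 and miR-582 had 11 and 12 counts in library 1, so those ratios are loose.

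The arm ratio of miR-22 changed little between libraries. The highest and lowest library differed by 0.34 on the log2 scale, against a median of 2.00 over the 59 precursors with at least 10 counts of each arm in each library. That was the smallest difference among the 59. The 27 and 17 precursors with at least 50 and at least 100 such counts are subsets of these that hold miR-22. Its first place in them was therefore fixed in advance and adds nothing. MiR-378a followed at 0.55, then miR-222 at 0.56, miR-99b at 0.72 and miR-27b at 0.80. At the other end let-7d differed by 6.29, with the 3p arm higher in library 1 and the 5p arm in libraries 2 and 3. Which precursor comes first was read off the data, and no test was made of it. Counting error also adds more to the differences of precursors near 10 counts than to that of miR-22, whose 5p arm had 500 or more. How much of the gap to the median came from depth was not tested.

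**Figure D4:**
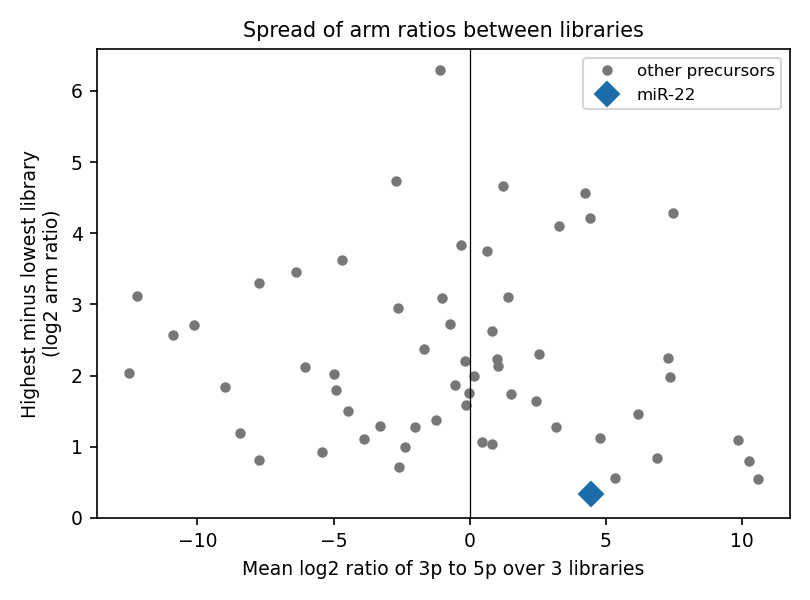
Difference between the highest and the lowest library in log2 arm ratio (vertical axis) against the mean log2 ratio of 3p to 5p (horizontal axis) for the 59 precursors with at least 10 counts of each arm in each library. MiR-22 (diamond) is the lowest point, at 0.34.

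Even this small difference was larger than counting error. A chi-square test of arm by library passed for 76 of 81 precursors (93.8%), and miR-22 was one of them (adjusted p = 0.000142 over the 81). Only library 2 stood off. By Fisher's exact test, two-sided and adjusted over the 3 pairs of libraries, the arm ratio of library 1 was 0.793 times that of library 2 (95% interval 0.706 to 0.890, adjusted p = 0.000240). That of library 2 was 1.25 times that of library 3 (1.11 to 1.42, adjusted p = 0.000486). Between libraries 1 and 3 the ratio was 0.994 (0.889 to 1.11, adjusted p = 0.932), and without library 2 the chi-square test gave an adjusted p of 0.913.

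Likeness of pattern was measured as the root-mean-square distance between log2(CPM + 1) values centred over the 3 libraries, from which library scaling cancels apart from the added 1. Among the 133 other miRNAs that averaged 100 CPM or more, miR-22-5p was the closest to miR-22-3p, at 0.16, which is another view of their steady ratio. Next came miR-210-3p, the miRNA induced by hypoxia, also at 0.16, with 890, 769 and 487 CPM in libraries 1, 2 and 3. MiR-652-3p followed at 0.21, with 592, 503 and 295 CPM, then miR-16-5p, a repressor of cell-cycle genes, at 0.23 and miR-1843a-5p at 0.26. The median distance over the 133 was 0.75. These are descriptions over 3 libraries.

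For miR-22-5p, among 264 other miRNAs that averaged 10 CPM or more, the closest was miR-16-5p at 0.08, with 4307, 3030 and 2973 CPM in libraries 1, 2 and 3. MiR-148b-5p was at 0.11, and miR-1943-5p, miR-1843b-5p and miR-223-5p were each at 0.13. MiR-22-3p was 8th, at 0.16, against a median of 0.67.

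By mean level the neighbours of miR-22-3p were miR-222-3p, miR-99b-5p and miR-182-5p above it, at 5450 ± 555, 5011 ± 371 and 4860 ± 3299 CPM. Below it stood miR-26a-5p at 4416 ± 2862, miR-148b-3p at 4105 ± 1655 and miR-16-5p at 3437 ± 755 CPM (SD, n = 3 for each). The means of miR-222-3p and miR-16-5p lay 1.03 and 1.35 times the larger SD of the pair from that of miR-22-3p, and the other 4 differed from it by less than that SD. In single libraries it changed: miR-182-5p was at 1068 CPM in library 1, below miR-22-3p, and at 6441 and 7071 CPM in libraries 2 and 3, above it. Ligation and PCR favour some sequences, so levels of different miRNAs are read counts and not molecules.

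The other miRNAs reported to repress Tet2 share no seed with miR-22. The 3 most abundant of them are shown with the seed in capitals.
miR-7a-5p: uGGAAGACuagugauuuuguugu
let-7a-5p: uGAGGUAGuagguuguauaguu
miR-26a-5p: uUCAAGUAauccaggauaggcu
These 3 seeds differ from each other.

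In the Tet2 list miR-22-3p was the third most abundant of 10 members by the mean. MiR-7a-5p was above it at 11521, 42083 and 65468 CPM in libraries 1, 2 and 3. So was let-7a-5p by the mean, at 1054, 14113 and 13002 CPM. MiR-26a-5p was close to it by the mean, at 1137, 5702 and 6410 CPM. In library 1, where these were low, miR-22-3p was at rank 2 and made up 17.8% of the list's counts, and in libraries 2 and 3 it was at rank 4, with 6.716% and 3.797%. Of the remaining members, miR-29a-3p, miR-26b-5p, miR-101a-3p and miR-125b-5p averaged 2677, 1942, 1888 and 1572 CPM, while miR-29b-3p and miR-29c-3p averaged 177 and 18.1 CPM. All 10 members passed the chi-square test between libraries, where 90.1% of all miRNAs did. MiR-22-3p had the lowest coefficient of variation of the 10 when counts were scaled to miRNA totals (18.5% against a list median of 49.1%), and the third lowest with TMM factors (21.3% against 63.1%). Over all 353 miRNAs tested those medians were 64.2% and 55.9%.

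**Figure D5:**
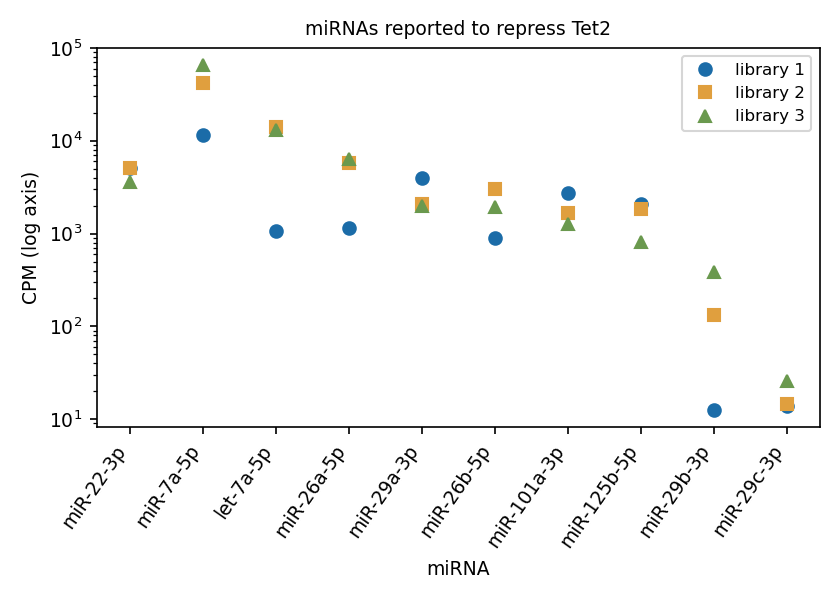
Level of each of the 10 members of the Tet2 list in each library, in CPM on a log axis, with miR-22-3p first. MiR-22-3p lies between 3602 and 5088 CPM, while let-7a-5p runs between 1054 and 14113 CPM.

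Among 13 miRNAs tied to the development of monocytes and macrophages, miR-22-3p was 5th by the mean. The means of miR-21a-5p, miR-146a-5p, miR-378a-3p and miR-20a-5p were higher. MiR-146a-5p, which NF-κB induces and which dampens Toll-like receptor signalling, stood at 33401, 35012 and 36543 CPM in libraries 1, 2 and 3, and miR-378a-3p at 42113, 5710 and 5288 CPM. The blood-cell miR-142a-3p, at 42.9, 1364 and 819 CPM, was below miR-22-3p in every library. So were the inflammatory miR-155-5p, at 74.8, 2388 and 829 CPM, and miR-223-3p, highest in neutrophils, at 35.6, 52.6 and 33.0 CPM. All 13 passed the chi-square test between libraries, where 90.1% of all miRNAs tested did. Only miR-146a-5p of the list had a lower coefficient of variation than miR-22-3p, at 4.49% against a list median of 71.4%, when counts were scaled to miRNA totals.

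Library 1 lay outside the range of libraries 2 and 3 for most of these miRNAs, and the counts on each side moved with the scaling. Scaled to miRNA totals, library 1 was below both others for 6 of the 10 Tet2 members and above both for 3, and miR-22-3p was the member between them. Over all 353 miRNAs it was below both for 27.5% and above both for 60.3%. With TMM factors 7 of 10 were below both and 2 above, against 38.2% and 45.6% of all. For the monocyte and macrophage list the counts below and above were 5 and 5 of 13 by miRNA totals, and 8 and 4 by TMM. MiR-22-3p was among those below both in the TMM counts.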

How the data were processed

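Small RNA libraries (NEBNext kit, single-end reads of 50 bases) came from 3 exosome preparations, grouped by their titles. Per the labels, the authors deposited whole-number counts per mature miRNA and a normalized value. Dividing the 2 deposited columns shows that value to be RPM, with a denominator of 13995845 to 14047692, of which miRNA counts make up 17.8% to 22.9%. Bcl2fastq, BWA and mm10 are named in the submitters' processing notes. Trimming, mismatch limits, annotation release and the handling of multiply matching reads are not given in the sources used here. Counts are of PCR products, since no molecular identifiers are mentioned, and intervals and floors cover counting error only.

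Counts were scaled to miRNA totals (CPM). Chi-square tests of levels took miRNAs with 30 or more counts in all. Arms were paired by name and tested with edgeR 4.0.16 in R 4.3.3 on precursors with 60 or more counts, with Benjamini-Hochberg adjustment over all tested. SEs are the log2 ratio divided by the root of F. The arm-by-library test needed expected counts of at least 5. The tests were checked on simulated data. For the chi-square tests these held counting error only, and for edgeR a preset spread. The checks therefore do not cover the wider spread between these libraries. Alternatives were TMM, DESeq2 1.42.0, RPM, no filter and leaving out each library. RNAfold 2.7.2 folded the hairpin. Named miRNAs were both arms, the 3 neighbours on each side in level and arm ratio, the 5 nearest in pattern, seed sharers and the 3 most abundant members of each of 2 lists. Results of a further list are not reported here. Others were named after their values were seen. Members, lists and markers were chosen with earlier results of these data known.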

Additional observations from a re-analysis of the deposited data

How the results depend on the processing

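The arm ratio of miR-22 kept its direction and stayed below an adjusted p of 0.05 in every fit, with edgeR and with DESeq2's Wald test: log2 3p over 5p was 4.332 to 4.4996 with a library left out, 4.45 with no replicate block, 4.44 without the count filter, 4.60 with TMM factors over the arm columns and 4.44 in DESeq2. The levels depended on scaling. The mean of miR-22-3p was 4593 CPM with TMM factors and 4535 with DESeq2 size factors, but 937 in RPM and 5814 with miR-21a-5p left out of the totals, an alternative chosen after seeing the data. Those of miR-22-5p were 43.5 in RPM and 264 without miR-21a-5p. For miR-22-3p the log2 ratio of library 1 to library 2, -0.01 with miRNA totals, was -0.63 with TMM and -0.66 with DESeq2 factors. Other library ratios turned round: the log2 ratio of library 1 to library 3 for miR-22-3p was -0.38 with TMM and -0.39 with DESeq2 factors. For miR-22-5p it was -0.37 and -0.38, and that of library 1 to library 2 was -0.29, -0.33 and, without miR-21a-5p, -0.15. Leaving out 1 library gave a chi-square statistic of 0.485 to 752 for miR-22-3p, lowest without library 3, and of 3.78 to 38.7 for miR-22-5p, lowest without library 1. The adjusted p for the arm ratio between libraries ran from 0.000132 to 0.913, highest without library 2. The number of miRNAs differing between libraries was 177 of 288 to 284 of 327. That of precursors differing in arm ratio was 43 of 84 to 68 of 85, both lowest without library 1. There 288 miRNAs were tested in place of 353, and 84 precursors in place of 81. The cause was not tested. The count of precursors with unequal arms was 126 of 157 in the main fit. Over its alternatives it ran from 99 of 151, without library 2, to 168 of 473, without the count filter. With counts of 500 to 756, miR-22-5p sets most of the counting error of the arm ratio. The SE of 0.90 in the main edgeR fit goes beyond counting error, since it also takes in a spread shared over precursors.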
